A study of Mus musculus with 84 samples.

Results

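The mitochondrial genome contributes 37 of the 55471 genes in the count tables, chosen by a name that starts with mt-. They are 2 ribosomal RNA (rRNA) genes, 22 transfer RNA (tRNA) genes and 13 protein genes, and the classes are kept apart here. They were read in 3 bulk libraries and in 80 of 81 single cells. The cell left out, number 77, had under 10000 gene reads.

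The cells are MMC9s, mucosal mast cells that make interleukin-9, taken by sorting from BALB/c small intestine in an ovalbumin (OVA) model of food allergy. For the bulk libraries, OVA-sensitized wild-type hosts received bone marrow progenitors of 1 of 3 genotypes and then 7 oral OVA challenges, 3 per week. The donors were WT, IL-4RaY709F (a gain-of-function mutant of the interleukin-4 receptor alpha chain) or IL-4Ra-/- (its loss-of-function mutant). Each genotype has 1 library, a pool of 12 to 20 replicates, so no spread between animals can be had and no p-value is given. The hosts of all 3 groups kept a WT receptor, and which gate was used for the bulk cells is unknown here. The single cells were WT only, from mice sensitized and challenged with OVA, and the sort took cells that were c-Kit+ and ST2+, IL-4GFPhigh and β7-integrin low, and both Lin- and IL-17RB2-. The labels name no animal for them, so the cells count as 1 sample and are described by their range.

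Both strands of the circular mitochondrial genome are transcribed into long precursors that run through many genes. The tRNAs lie between the other genes, and cutting them out releases the rRNAs and the messenger RNAs, most of which then gain a short poly(A) tail. The mature levels of neighbouring genes can therefore differ although they start on a shared precursor. The protein genes encode core subunits of respiratory complexes I, III and IV and of ATP synthase, and the rRNAs build the ribosome that translates them. Copies of mitochondrial DNA inserted in the nuclear chromosomes, annotated as pseudogenes, can be nearly or fully identical to the mitochondrial genes.

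Sequences from the GENCODE M21 transcripts (GRCm38) show what kinds of member the results turn on. The first set holds 4 tRNAs, because tRNAs gave almost no reads in bulk and their genes are short. They are mt-Tl1 (leucine, MT:2676-2750, plus strand), mt-Tp (proline, MT:15356-15422, minus strand), mt-Tc (cysteine, MT:5192-5257, minus strand) and mt-Tv (valine, MT:1025-1093, plus strand, between the 2 rRNA genes), each with its anticodon in capitals.
mt-Tl1: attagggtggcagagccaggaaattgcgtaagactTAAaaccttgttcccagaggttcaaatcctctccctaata
mt-Tp: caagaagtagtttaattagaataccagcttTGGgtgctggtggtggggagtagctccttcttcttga
mt-Tc: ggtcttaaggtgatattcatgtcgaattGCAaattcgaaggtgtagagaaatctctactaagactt
mt-Tv: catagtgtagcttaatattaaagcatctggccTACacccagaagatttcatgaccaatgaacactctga

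The second set pairs 60 bases of mt-Co3 (MT:8968-9027) and of mt-Nd3 (MT:9459-9518) with the same stretch of their pseudogene copies on chromosome 1, Gm28437 (chr1:24613551-24613610, minus strand) and Gm28438 (chr1:24613060-24613119, minus strand). Capitals mark the base that differs within a pair. The first pair has none in this window and the second has 1, and the read counts on these genes come up below.
mt-Co3: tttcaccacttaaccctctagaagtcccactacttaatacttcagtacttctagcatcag
Gm28437: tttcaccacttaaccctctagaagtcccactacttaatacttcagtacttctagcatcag
mt-Nd3: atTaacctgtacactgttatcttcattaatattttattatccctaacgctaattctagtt
Gm28438: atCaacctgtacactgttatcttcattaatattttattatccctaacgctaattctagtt

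The bulk libraries held 2299793 (WT), 2521791 (IL4RaY709F) and 2330628 (IL4Ra-/-) gene reads, and the 80 cells held 163596 to 2210211 with a median of 1209299.5. The 15 mast cell markers summed to 73676.5 CPM (counts scaled to a common total) in WT, 104723 in IL4RaY709F and 69071.3 in IL4Ra-/-, with no marker at 0, and 14 of the 15 had 10 or more reads in at least 50% of the cells. Markers of other cell types differed between the bulk libraries. The sum of 11 plasma or B cell markers was 6699, 3184 and 13522 CPM in that order, the sum of 12 macrophage or monocyte markers 194, 102 and 661 CPM, and the sum of 15 epithelial markers 30.6, 33.5 and 105 CPM. The sum of 8 T cell markers was 161, 203 and 282 CPM. That of 9 stromal or endothelial markers was 225, 375 and 214 CPM, highest in IL4RaY709F. The part of these cell types in any difference below was not tested. Il4ra itself had 806, 1831 and 350 reads in WT, IL4RaY709F and IL4Ra-/-, and no source used here gives the deleted part of the gene.

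Mitochondrial genes took a small and similar share of the bulk reads in the 3 genotypes. The share was 2.57% of gene reads in WT (95% exact binomial interval 2.55 to 2.59), 2.90% in IL4RaY709F (2.88 to 2.92) and 2.62% in IL4Ra-/- (2.60 to 2.64). All intervals here cover counting error only. The 13 protein genes made up 2.30%, 2.35% and 2.35% of the reads. The rRNA genes made up 0.263% in WT, 0.554% in IL4RaY709F and 0.275% in IL4Ra-/-, so the higher total of IL4RaY709F was mostly rRNA. The tRNA genes gave 56, 31 and 63 reads in all.

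Most of the additional rRNA reads in IL4RaY709F lay on mt-Rnr1, the RNA of the small mitochondrial ribosomal subunit (ENSMUSG00000064337, MT:70-1024, plus strand). It had 1819 reads in WT, 7851 in IL4RaY709F and 2104 in IL4Ra-/-, or 796, 3376 and 827 CPM after trimmed-mean (TMM) scaling. WT and IL4Ra-/- were close and IL4RaY709F was high. Of the nuclear genes looked up beside it, some were also highest in IL4RaY709F, and Rn7sk was lowest there. Gm15564 had 44, 139 and 49 reads in WT, IL4RaY709F and IL4Ra-/- (log2 ratio 1.63 against WT), CT010467.1 had 684, 871 and 421 (0.32), and Lars2 had 331, 537 and 284 (0.67). Rn7sk had 74, 63 and 86 (-0.26, -0.77 to 0.25). Of these genes only Gm15564 differed 2-fold or more from WT, where 1.68% of the 5964 genes tested were called higher. Against IL4Ra-/-, the log2 ratios in IL4RaY709F were 1.63 for Gm15564, 1.18 for CT010467.1, 1.05 for Lars2 and -0.32 for Rn7sk. In that comparison 4.62% of 6319 genes tested were called higher. Gm15564, CT010467.1 and Lars2 were looked up after their values across cells were seen. The part of RNA quality in the difference was not tested. The mt-Rnr1 level in IL4RaY709F was 4.24-fold that of WT (95% counting interval 4.03 to 4.47, log2 ratio 2.08) and 4.08-fold that of IL4Ra-/- (3.89 to 4.28). The log2 ratio of IL4Ra-/- against WT was 0.06 (-0.04 to 0.15).

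The RNA of the large ribosomal subunit, mt-Rnr2 (ENSMUSG00000064339, MT:1094-2675), lies just downstream on the same strand, separated from mt-Rnr1 by mt-Tv alone. Its reads were 4219 in WT, 6121 in IL4RaY709F and 4309 in IL4Ra-/-. The log2 ratio of IL4RaY709F was 0.51 against WT (0.46 to 0.57) and 0.64 against IL4Ra-/- (0.58 to 0.69), and that of IL4Ra-/- against WT was -0.12 (-0.19 to -0.06), which under scaling by total gene reads turns to 0.01. The direction was that of mt-Rnr1 in both IL4RaY709F comparisons, at a smaller size.

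Because both rRNAs were counted in the same library, their ratio does not depend on the scaling. There were 0.431 reads of mt-Rnr1 for each read of mt-Rnr2 in WT (0.408 to 0.456), 1.28 in IL4RaY709F (1.24 to 1.33) and 0.488 in IL4Ra-/- (0.463 to 0.515). On the log2 scale the ratio in IL4RaY709F was 1.57 above that of WT (1.48 to 1.67) and 1.39 above that of IL4Ra-/- (1.30 to 1.48). Set against the summed protein genes instead, mt-Rnr1 was 1.95 higher on the log2 scale than in WT (1.87 to 2.03) and mt-Rnr2 0.38 higher (0.32 to 0.44). The libraries thus differed in the balance between the 2 rRNAs and in the balance of rRNA to messenger RNA. Summed rRNA per protein-gene read was 0.114 in WT, 0.236 in IL4RaY709F and 0.117 in IL4Ra-/-.

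**Figure D1:**
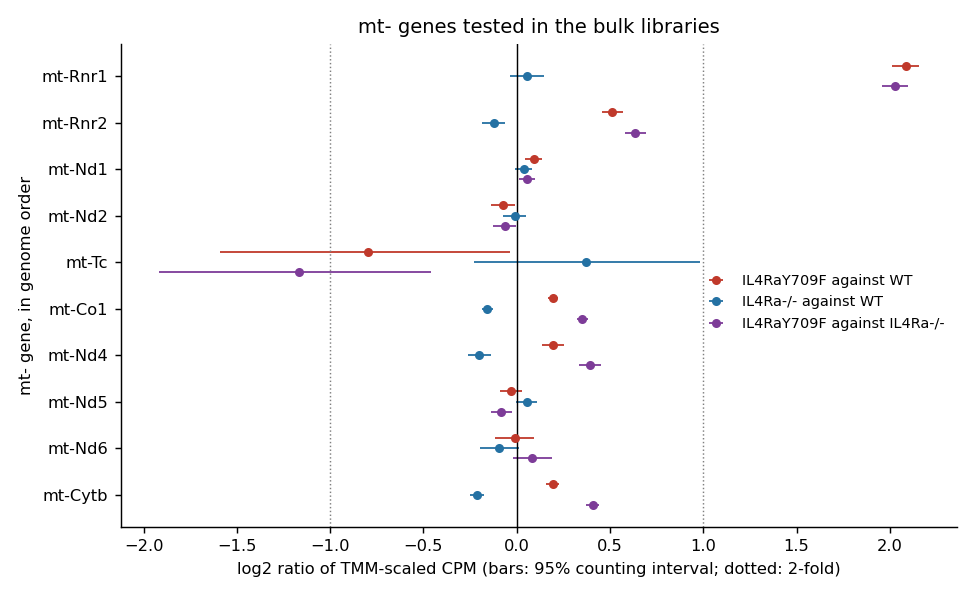
Log2 ratio of TMM-scaled CPM (x axis) for the 10 mt- genes tested in at least 1 comparison of the bulk libraries (y axis, genome order), 1 colour per comparison, with 95% counting intervals as bars and dotted lines at 2-fold. Only mt-Rnr1 and mt-Tc have a point beyond the dotted lines, mt-Rnr1 at 2.08 and 2.03 and mt-Tc at -1.17.

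Each gene was set against a rule of size, with 50 or more reads in the larger library, a ratio of at least 2-fold and an interval that leaves out equality. In IL4RaY709F against WT, 9 mt- genes could be tested, 1 was called higher (mt-Rnr1) and 0 lower, where 1.68% of the 5964 genes tested were called higher and 0.771% lower (2.45% either way). In IL4Ra-/- against WT, 0 of 10 were called in either direction, where 2.43% of 6246 were called higher and 1.3% lower (3.73% either way). In IL4RaY709F against IL4Ra-/-, 1 of 10 was called higher (mt-Rnr1) and 1 lower (mt-Tc), where 4.62% of 6319 were called higher and 3.5% lower (8.12% either way). The IL4RaY709F library is in both comparisons that call mt-Rnr1, so they are not separate evidence. The other 27 members had under 50 reads in every bulk library and were not tested: 21 tRNA genes and 6 protein genes.

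None of the 7 protein genes with enough reads was called. Against WT, their log2 ratios in IL4RaY709F ran from -0.07 to 0.19 (median 0.09, beside 0.02 over 5955 other genes tested) and in IL4Ra-/- from -0.21 to 0.05 (median -0.09, beside -0.08 over 6236). IL4RaY709F against IL4Ra-/- gave -0.08 to 0.41 (median 0.08, beside 0.09 over 6309). Other genes with 1000 or more reads had medians of 0.10, -0.25 and 0.34 in the 3 comparisons, with a robust SD of 0.29, 0.32 and 0.49.

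Among the protein genes, mt-Co1, the catalytic subunit of complex IV, had the most reads, 18195 in WT, 21176 in IL4RaY709F and 18155 in IL4Ra-/-. mt-Cytb, the cytochrome b subunit of complex III, followed with 12019, 13988 and 11536. Both were slightly higher in IL4RaY709F (log2 ratio against WT 0.19 for each, intervals 0.17 to 0.22 and 0.16 to 0.23) and slightly lower in IL4Ra-/- (-0.16 and -0.21). mt-Nd4, a membrane subunit of complex I, had 4454, 5185 and 4314 reads and log2 ratios against WT of 0.19 and -0.20.

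The other complex I subunits did not share that order. mt-Nd1 had 7858, 8512 and 8971 reads, with log2 ratios against WT of 0.09 in IL4RaY709F and 0.04 in IL4Ra-/-. mt-Nd2 had 4197, 4056 and 4636 reads (-0.07 and -0.01), and mt-Nd5 had 4693, 4679 and 5418 (-0.03 and 0.05). mt-Nd6, the one protein gene on the minus strand, had 1497, 1513 and 1561 reads (-0.01 and -0.09). Under scaling by total gene reads every log2 ratio shifts by -0.11, 0.13 and -0.24 in the 3 comparisons, and then mt-Nd1 changes sign in IL4RaY709F against WT (-0.02), as do mt-Nd2 (0.12) and mt-Nd6 (0.04) in IL4Ra-/- against WT. Against IL4Ra-/-, mt-Nd1 (-0.19) and mt-Nd6 (-0.16) change sign in IL4RaY709F. The sum of the protein genes in IL4Ra-/- against WT goes from -0.11 to 0.03.

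Levels between genes were compared as CPM per kilobase with TMM scaling. In WT, mt-Co1 (5153), mt-Cytb (4597) and mt-Nd1 (3593) were highest. mt-Nd2 (1769), mt-Nd4 (1414), mt-Nd6 (1262), mt-Rnr2 (1167), mt-Nd5 (1126) and mt-Rnr1 (833) came next. In IL4RaY709F mt-Rnr1 reached 3535, between mt-Nd1 (3824) and mt-Nd2 (1680), while in IL4Ra-/- it stood at 866, below mt-Rnr2 (1071). The order of mt-Co1, mt-Cytb and mt-Nd1 was the same in all 3 libraries.

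The remaining 6 protein genes, which lie side by side on the genome from mt-Co2 to mt-Nd4l, had almost no reads in bulk. They were grouped after their values were seen. mt-Co2, the copper-binding subunit of complex IV, had 35, 34 and 44 reads in WT, IL4RaY709F and IL4Ra-/-. mt-Co3, the third mitochondrial subunit of that complex, had 22, 21 and 24, and mt-Atp6, the proton-channel subunit of ATP synthase, had 27, 19 and 17. The small genes mt-Atp8 (ATP synthase; 1, 0 and 1 reads), mt-Nd3 (complex I; 3, 0 and 2) and mt-Nd4l (complex I; 0 in each) were at or under the floor of 3 reads, or 1.18 to 1.31 CPM. Together these 6 genes span 26.3% of the length of the protein genes but gave 88, 74 and 88 of their 53001, 59183 and 54679 reads (0.166%, 0.125% and 0.161%). Per kilobase, the other 7 protein genes were 214-fold, 285-fold and 221-fold higher.

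The same 6 genes, apart from mt-Atp8, are those whose sequence is held almost whole by annotated nuclear copies. Of all 50-base stretches, 100% in mt-Co2, 99.9% in mt-Co3, 99.5% in mt-Atp6, 98.8% in mt-Nd4l and 98% in mt-Nd3 also occur in another annotated transcript. The share is 62.2% in mt-Nd4, 51.1% in mt-Co1, 8.19% in mt-Nd2, 7.61% in mt-Nd5, 1.04% in mt-Rnr2 and 0% in mt-Rnr1, mt-Nd1, mt-Nd6, mt-Cytb and mt-Atp8. No tRNA gene shares a 50-base stretch. Most of the shared sequence comes from 7 unprocessed pseudogenes on the minus strand of chromosome 1, within 4663 bases at chr1:24611535-24616197. They follow the gene order of the mitochondrial genome from the last part of mt-Co1 to the first part of mt-Nd4, and the 6 that begin where their gene begins keep a constant offset to within 3 bases. At that offset mt-Atp8 would fall at chr1:24614609-24614812, where the annotated copies leave most of the stretch uncovered, and the sequence there was not read.

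**Figure D2:**
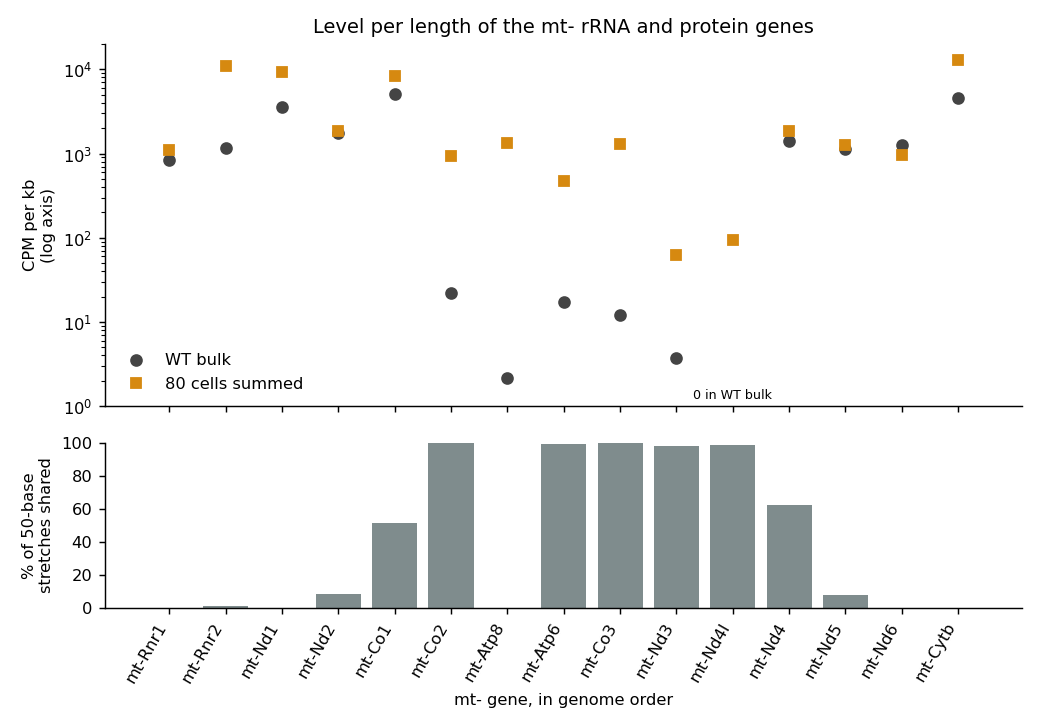
Top: CPM per kilobase (log axis, per total gene reads) of the mt- rRNA and protein genes in genome order, in WT bulk (circles) and in the 80 cells summed (squares). Bottom: percent of each gene's 50-base stretches that also occur in another annotated transcript, where the genes from mt-Co2 to mt-Nd4l reach 98% to 100%, other than mt-Atp8 at 0%. All 6 are the low points of the bulk library.

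The copies took more reads than their mitochondrial genes in bulk. Gm28437, the copy of mt-Co3, had 730, 938 and 613 reads in WT, IL4RaY709F and IL4Ra-/-, beside 22, 21 and 24 on mt-Co3. Gm10925, the copy of mt-Atp6, had 856, 966 and 747, beside 27, 19 and 17. Gm28661, the copy of mt-Co2, had 569, 645 and 439, beside 35, 34 and 44. The copies of mt-Nd3 and mt-Nd4l, Gm28438 and Gm10222, had 43 to 65 reads where the mitochondrial genes had 0 to 3. All 3 libraries show this order.

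For genes that are only in part shared, the copy stayed the smaller. Gm29216, a copy of the last part of mt-Co1, had 691, 914 and 523 reads beside the 18155 to 21176 of mt-Co1, and Gm28439, a copy of the first part of mt-Nd4, had 246, 270 and 194 beside 4314 to 5185. Reads from an identical stretch cannot be placed by sequence on one or the other gene, and no source used here says how the authors treated reads that map to several places.

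Adding the copy's reads to its gene changed some small differences. In IL4RaY709F against WT, the log2 ratio of mt-Co3 went from -0.09 to 0.33 (0.19 to 0.47), of mt-Co2 from -0.07 to 0.14 (-0.02 to 0.30) and of mt-Atp6 from -0.53 to 0.13. In IL4Ra-/- against WT, mt-Co2 went from 0.18 to -0.48 (-0.65 to -0.30), mt-Co3 from -0.03 to -0.39 and mt-Atp6 from -0.82 to -0.36. None of these sums passed the 2-fold rule in those 2 comparisons. The sign thus turned for all 3 genes in IL4RaY709F against WT, and for mt-Co2 alone in IL4Ra-/- against WT. mt-Co1 and mt-Nd4 stayed at 0.20 and 0.19 in IL4RaY709F against WT and at -0.17 and -0.21 in IL4Ra-/- against WT.

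In the single cells the same genes were read far better, although the copies were there too. The summed cells gave 93722 reads on mt-Co3 and 45088 on Gm28437, 60124 on mt-Co2 and 13855 on Gm28661, and 30135 on mt-Atp6 and 25315 on Gm10925. The 6 genes made up 4.99% of the protein-gene reads of the summed cells, and the other 7 were 6.79-fold higher per kilobase. mt-Atp8 had 48 to 1593 reads in a cell, with a median of 253. mt-Nd3 and mt-Nd4l were low here as well, with 10 or more reads in 65 and 63 of the 80 cells.

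For the 3 copies with the most reads among those of whole genes, the ratio of copy to gene varied little from cell to cell. Gm28437 had 0.340 to 0.584 reads per read of mt-Co3 (median 0.482, coefficient of variation 9.48%), and Gm28661 had 0.161 to 0.314 per read of mt-Co2 (median 0.226, 11.6%). Gm10925 had 0.600 to 1.47 per read of mt-Atp6 (median 0.808, 18.6%). The range of mt-Co3 over the same cells was 136 to 13340 CPM, so this copy kept step with its gene over a wide range. The ratio varied more for the other copies on chromosome 1, with a coefficient of variation of 20.6% for Gm29216, 36.3% for Gm28439, 52.4% for Gm28438 and 82.0% for Gm10222. The bulk ratios lay outside the range of the cells for each of these pairs, at 33.2, 44.7 and 25.5 for Gm28437, 16.3, 19 and 9.98 for Gm28661, and 31.7, 50.8 and 43.9 for Gm10925 in WT, IL4RaY709F and IL4Ra-/-. Gm28438, whose mitochondrial gene mt-Nd3 differs from it at 1 aligned base, was the one copy with more reads than its gene in the median cell, at a ratio of 3.00 (0.833 to 10 in 79 cells).

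**Figure D3:**
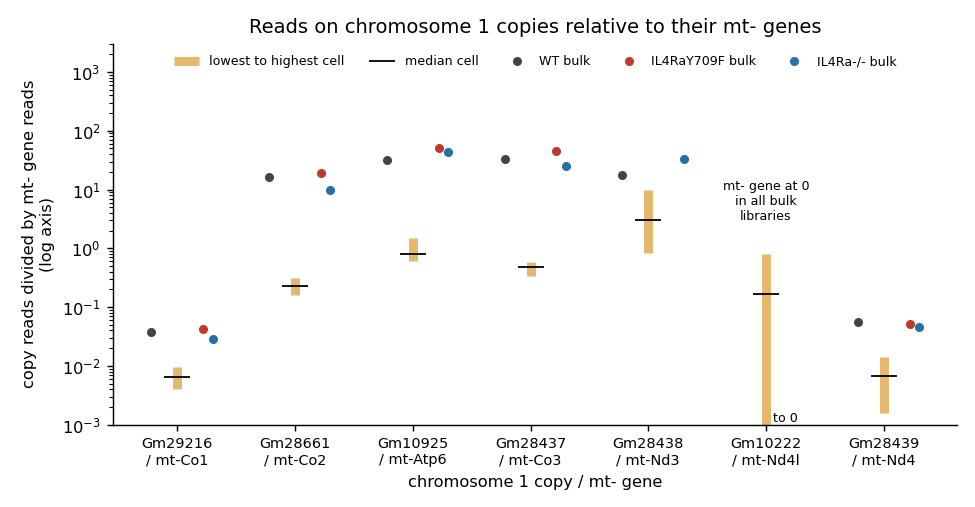
Reads on each chromosome 1 copy divided by reads on its mt- gene (y axis, log), as the range over cells (bar), the median cell (line) and the bulk libraries (points). For Gm28661, Gm10925 and Gm28437 the bulk points lie between 9.98 and 50.8 and the cells between 0.161 and 1.47.

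tRNA genes, 59 to 75 bases long in the annotation, were near the limit of counting. In bulk, 20 of the 22 tRNA genes had 0 reads in WT and 19 in IL4RaY709F and in IL4Ra-/-, each of which allows up to 3 reads (1.18 to 1.31 CPM). All 56, 31 and 63 tRNA reads lay on the 8 genes annotated on the minus strand, and the 14 on the plus strand had 0. mt-Tc had 41 reads in WT, 24 in IL4RaY709F and 59 in IL4Ra-/-, and its log2 ratio in IL4RaY709F against IL4Ra-/- was -1.17 (-1.92 to -0.46). mt-Tp had 15, 6 and 0 reads, and mt-Ts1 and mt-Te had 2 at most.

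The cells gave tRNA reads on both strands. Their 2569 tRNA reads fell as 1265 on plus-strand and 1304 on minus-strand genes, and 19 of 22 tRNA genes had at least 1 read. mt-Tp had 10 or more reads in 20 of 80 cells (25%, exact binomial interval 16 to 35.9) and mt-Tl1 in 17 (21.2%, 12.9 to 31.8). These intervals cover the counting of cells within 1 sample and say nothing of other mice. The other 20 had them in 5 cells at most, and mt-Tg, mt-Tr and mt-Tl2 had 0 reads in every cell and bulk library. No source used here says whether the authors counted reads by strand, so reads on the minus-strand genes cannot be told apart from reads of the opposite strand.

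The 2 rRNAs were in a different balance in single cells. The ratio of mt-Rnr1 to mt-Rnr2 was 0.00944 to 0.206 with a median of 0.0600, and 0 of 80 cells reached the 0.431 of the WT bulk library. mt-Rnr2 had 8637 CPM per kilobase in the median cell beside 1167 in WT bulk. mt-Rnr1 was at 837 beside 833. Over the summed reads, mt-Rnr2 was 9.47-fold and mt-Rnr1 1.34-fold the WT bulk level on the scale of total gene reads, with mt-Cytb at 2.82-fold, mt-Nd1 at 2.60-fold, mt-Co1 at 1.63-fold, mt-Nd2 at 1.05-fold and mt-Nd6 at 0.761-fold. Both kinds of library held WT cells, but the mouse model, the input and the library preparation differed, and these cannot be told apart.

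**Figure D4:**
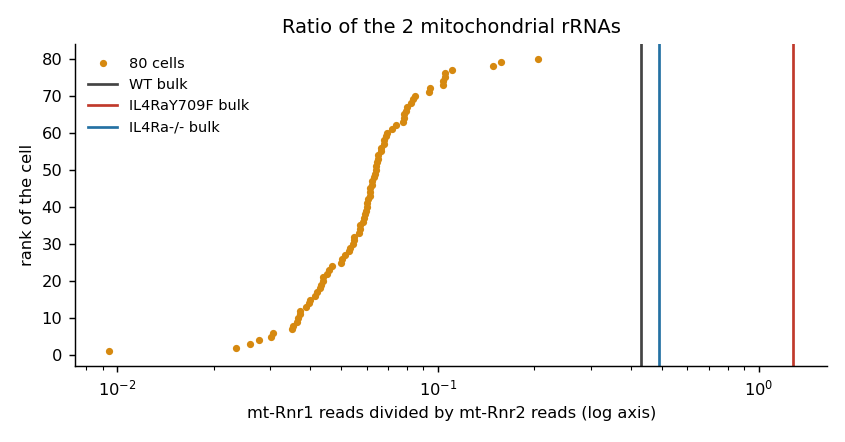
Reads of mt-Rnr1 divided by reads of mt-Rnr2 (x axis, log) in each of 80 WT cells, ranked from lowest to highest (y axis), with the 3 bulk libraries as vertical lines. The cells reach 0.206 at most, and the bulk libraries stand at 0.431, 0.488 and 1.28.

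Cells varied widely in how much of their RNA was mitochondrial. The share of mt- genes in the gene reads of a cell ran from 1.55% (cell 13) to 90.8% (cell 79), with quartiles of 3.35% and 7.83% and a median of 5.0%. Protein genes had a median of 3.57% (1.08 to 65.4), rRNA genes 1.45% (0.413 to 25.3) and tRNA genes 0.00186% (0 to 0.0735). The rRNA share was above that of the WT bulk library in 80 of 80 cells, and the protein share in 61 of 80. The share was above 10% in 14 cells, above 20% in 11 and above 50% in 4.

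The cells with the highest shares were shallow. Cells 79, 34, 24 and 69, at 90.8%, 82.6%, 76.4% and 71.6%, had 198349 to 357991 gene reads, of which 33081 to 84890 came from outside mt- genes. They still had 10 or more reads for at least 9 of 10 mast cell genes looked up (Kit, Cpa3, Mcpt1, Mcpt2, Hdc, Fcer1a, Ms4a2, Il1rl1, Gata2 and Srgn). The rest of the 15 mast cell markers were not looked up cell by cell. Some counts were near the limit, such as Ms4a2 with 9 reads in cell 79 and 10 in cell 34. Only 230 to 617 genes outside mt- had 10 or more reads in these cells. Across the 80 cells the mitochondrial share had a rank correlation (Spearman's rho) of -0.69 with gene reads, -0.65 with genes detected and -0.74 with reads outside mt- genes. These are descriptions over cells that share preparation and denominators. The part of depth or RNA quality in the shares was not tested. Among the 70 cells with 500000 or more gene reads the median share was 4.46%.

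**Figure D5:**
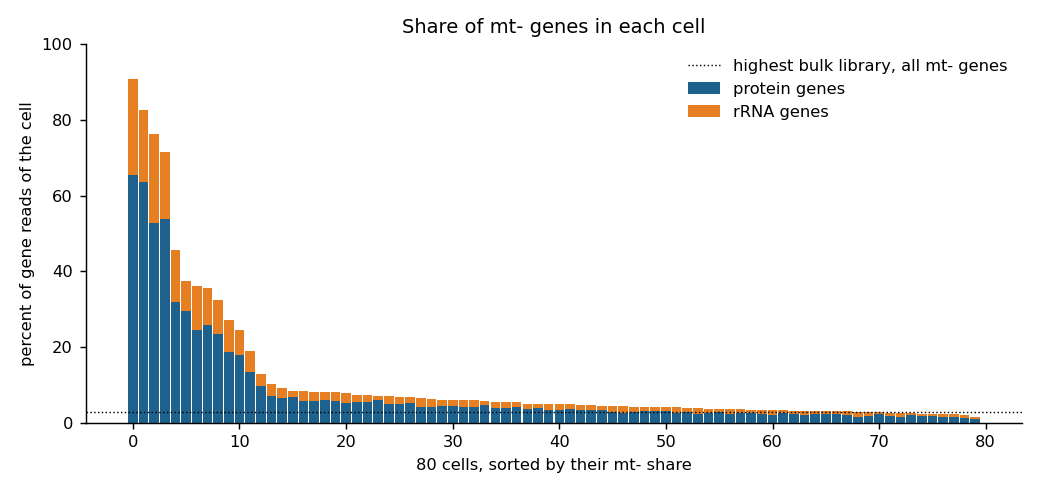
Percent of gene reads (y axis) from mt- protein genes (blue) and mt- rRNA genes (orange) in each of 80 cells, sorted by their sum (x axis), with a dotted line at the highest bulk library (2.90%). The first 4 cells are above 50%, and 69 of 80 lie above the line.

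The shares of the 3 classes varied together over cells. The shares of rRNA and protein genes had a rho of 0.91 over 80 cells, and those of tRNA and protein genes 0.60. Taken as shares of all gene reads, the 78 pairs of protein genes had a median rho of 0.77 (0.48 to 0.96). Taken as shares of the mitochondrial protein reads, which removes the common level but forces shares to trade off, the median was -0.02 (-0.53 to 0.62). The points of each pair share a library and a denominator.

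On that second scale the 12 pairs of protein genes next to each other in the genome ran from -0.27 to 0.62, with 7 above 0 and 5 below, and the other 66 pairs from -0.53 to 0.53. The highest pair was mt-Nd5 and mt-Nd6 (rho 0.62), which lie on opposite strands and overlap by 14 bases at their ends. Since it is unknown whether reads were counted by strand, reads on mt-Nd6 cannot be told apart from reads of the opposite strand. mt-Atp8 and mt-Atp6, which overlap by 43 bases, had 0.54, and mt-Atp8 with mt-Co3, mt-Co2 with mt-Co3, and mt-Atp6 with mt-Co3 each had 0.53. The lowest were mt-Nd1 with mt-Co1 (-0.53) and mt-Co1 with mt-Cytb (-0.52), pairs of abundant transcripts.

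mt-Cytb, mt-Co1 and mt-Nd1 made up most of the mitochondrial messenger RNA reads of the median cell, as in bulk. mt-Cytb took a median of 31.3% of the mitochondrial protein reads (9.14 to 46.2), mt-Co1 28.1% (13.7 to 41.7) and mt-Nd1 18.6% (7.86 to 31.6), beside 22.7%, 34.3% and 14.8% in WT bulk. mt-Nd4 followed with 5.46% (1.62 to 11.1), mt-Nd5 with 4.63% (0.156 to 37.6), mt-Nd2 with 4.07% (0.824 to 7.07) and mt-Co3 with 2.17% (1.09 to 3.94). In CPM per kilobase, the median cell had 9359 for mt-Cytb, 6707 for mt-Nd1, 6381 for mt-Co1 and 751 for mt-Nd6.

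One cell departed from that mix. In cell 13, which also had the lowest mitochondrial share, mt-Nd5 made up 37.6% of the mitochondrial protein reads (5392 reads), and the next highest cell had 11.8%. Its shares of mt-Nd1 (7.86%) and mt-Cytb (9.14%) were the lowest of all cells, its mt-Nd6 share (3.19%) the highest, and its mt-Co1 share (30.5%) was near the median. Without this cell, chosen after its value was seen, the rho of mt-Nd5 and mt-Nd6 was 0.61. The limit on strand given above holds for mt-Nd6 here too.

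Genes outside the mitochondrial genome that varied most like the summed mt- protein genes were nearly all its copies. Of 1412 genes with 10 or more reads in at least 50% of the cells (median rho -0.22, each as a share of the reads outside mt- genes), the 5 highest were Gm10925 (0.96), Gm28437 (0.96), Gm29216 (0.94), Gm28661 (0.93) and Gm28438 (0.86), all on chromosome 1. Gm13340, a copy on chromosome 2, and Gm28439 had 0.86 and 0.81. Reads from a stretch that is identical in copy and gene cannot be placed by sequence. The values of the copies therefore do not separate them from the mt- genes. The next genes were Gm10800 (0.60), Lars2 (0.44), Gm15564 (0.41) and CT010467.1 (0.37). The 5 lowest were Selplg (-0.53), Ube2d3 (-0.51), Gm15920 (-0.51), Ywhaq (-0.50) and Mtpn (-0.50).

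The nuclear genes that serve mitochondrial expression and respiration were read from 12 lists with 255 genes in all. In IL4RaY709F against WT, 1 of the 112 tested was called higher (Mrpl54) and 0 lower, with a median log2 ratio of 0.14. In IL4Ra-/- against WT, 0 of 112 were called higher and 1 lower (Ndufa6), with a median of -0.13. In IL4RaY709F against IL4Ra-/-, 8 of 114 were called higher and 0 lower, with a median of 0.31. The shares of all genes called in these comparisons are given above with the members, and the medians over other genes tested were 0.02, -0.08 and 0.09.

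In the 4 lists on mitochondrial replication and transcription, RNA processing, RNA stability and rRNA modification, no gene was called in any of the 3 comparisons, and few were deep enough to test. Polrmt, the mitochondrial RNA polymerase, had 63, 40 and 46 reads in WT, IL4RaY709F and IL4Ra-/-, with log2 ratios against WT of -0.68 (-1.29 to -0.09) and -0.61 (-1.19 to -0.04). Tfam, which packages and activates the genome, had 113, 115 and 136 reads, and Tfb2m, the initiation factor, 23, 25 and 33. Lrpprc, which stabilises mitochondrial messenger RNA, had 106, 115 and 125. Its partner Slirp was at 0 in all bulk libraries and had 405 reads over the cells, with 10 or more in 10 of 80.

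Of the lists on RNA, 2 of 15 genes for replication and transcription, 6 of 15 for RNA processing, 6 of 10 for stability and decay and 1 of 20 for rRNA modification and ribosome assembly had enough reads in IL4RaY709F against WT. Within RNA processing the extremes there were Pde12 (0.13), which trims poly(A) tails, and Angel2 (-0.37), and within stability and decay Pnpt1 (0.94), an exonuclease of mitochondrial RNA, and Lrpprc (0.09). Dhx30, a helicase of mitochondrial ribosome assembly, had 86, 105 and 111 reads (0.26 in IL4RaY709F and 0.21 in IL4Ra-/- against WT). The interval of Dhx30 in IL4RaY709F against WT was -0.16 to 0.69. The other genes of its list were too shallow to test, and the part of this list in the mt-Rnr1 difference was not tested.

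Mitochondrial ribosomal proteins, whose particles hold the 2 rRNAs, had 24 of 84 genes tested in IL4RaY709F against WT. The median was 0.08, with 13 genes above 0 and 11 below. Under total-read scaling it was -0.02, beside -0.09 over all genes tested outside the mitochondrial genome. Mrpl54, a protein of the large subunit, had 43 reads in WT, 89 in IL4RaY709F and 45 in IL4Ra-/- (log2 ratio 1.02 against WT and 1.11 against IL4Ra-/-). Mrpl12, also of the large subunit, was called against IL4Ra-/- (76 against 39 reads, 1.09). In the comparisons with WT the extremes of the translation factors were Gfm2 (0.38) and Mtfmt (-0.26) in IL4RaY709F and again Gfm2 (0.54) and Mtfmt (-0.63) in IL4Ra-/-.

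Nuclear subunits of the respiratory complexes assemble with the mitochondrial proteins. For complex IV, 11 of 11 genes were above 0 in IL4RaY709F against WT (median 0.26) and 11 of 11 below 0 in IL4Ra-/- against WT (-0.29). Of all genes tested outside the mitochondrial genome, 52.8% were above 0 in the first and 58.1% below 0 in the second. Under total-read scaling the complex IV genes were 10 of 11 above 0 (median 0.16) and 9 of 11 below (-0.15). Of all genes tested outside the mitochondrial genome, 39.1% were then above 0 in the first and 43.9% below 0 in the second. No gene of the list was called in either. Both comparisons use the same WT library. Against IL4Ra-/-, Cox7a2l (311 against 143 reads, 1.25), Cox8a (281 against 149, 1.04) and Cox5b (139 against 74, 1.04) were higher in IL4RaY709F. In that comparison 4.62% of 6319 genes tested were called higher. Total-read scaling shifts each log2 ratio there by -0.24, which takes Cox8a and Cox5b below 2-fold. Complex III had medians of 0.22 and -0.40 against WT, with Uqcrb highest in both (0.61 and 0.28). Complex I had 0.17 and -0.14, and ATP synthase 0.11 and -0.17. Other genes with 1000 or more reads had medians of the same signs (0.10 and -0.25). Under total-read scaling complex I was at 0.07 and -0.0037 and ATP synthase at 0.0040 and -0.03. That scaling shifts every gene alike, and the medians over all genes tested outside the mitochondrial genome were then -0.09 and 0.05.

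In complex I, Ndufa6 had 171 reads in WT, 176 in IL4RaY709F and 85 in IL4Ra-/-, and was called lower in IL4Ra-/- against WT (-1.16, -1.56 to -0.78) and higher in IL4RaY709F against IL4Ra-/- (1.18). Atp5g2, a subunit of the membrane ring of ATP synthase, was highest of its list in IL4RaY709F (0.80 against WT) and Atp5l lowest (-0.59). Myc, a transcription factor that also drives mitochondrial biogenesis genes, had 104 reads in IL4RaY709F and 38 in IL4Ra-/- (1.58). Lars2, which charges the mitochondrial leucine tRNAs, was called higher in IL4RaY709F against IL4Ra-/- (1.05). Total-read scaling shifts log2 ratios by -0.24 in IL4RaY709F against IL4Ra-/-, which takes Ndufa6, Lars2, Mrpl54 and Mrpl12 below 2-fold there. It gave 2 list genes higher and 1 lower in that comparison, beside 8 and 0 with TMM scaling. In IL4RaY709F against WT it gave 0.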

How the data were processed

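The deposited tables hold raw read counts per gene for 3 bulk libraries and 81 cells. Per the submitters' processing notes the authors used HISAT and featureCounts of Subread 2.0.0, and per the labels the build was GRCm38. No source used here gives the strand and multi-mapping settings. All 37 mt- genes had the coordinates of GENCODE M21. The members and lists were chosen with earlier results of these data known.

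With 1 library per genotype there is no test across animals. Log2 ratios of CPM scaled by TMM (edgeR 4.0.16, over the 3 bulk libraries) got exact conditional binomial (Clopper-Pearson) 95% counting intervals. A gene was called at 50 or more reads in the larger library, 2-fold or more and an interval without equality. A count of 0 was set to 3 reads. The rule was tested on simulated data that hold counting error only, so that test does not cover spread between animals or libraries. Where entries shared a symbol (Atp5o), the one with more bulk reads was used. Depth was 2299793 to 2521791 gene reads in bulk and 163596 to 2210211 in the cells kept (10000 or more). Detected means 10 or more reads in a cell. Shared stretches are runs of 50 bases found on either strand in transcripts of other genes.

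Named with values were both rRNAs, the 13 protein genes, each tRNA with 50 or more bulk reads or detected in at least 10% of cells, called nuclear list genes, otherwise list extremes, Polrmt, Tfam, Tfb2m, Lrpprc and Slirp, and the 5 highest and 5 lowest genes by rho. Alternatives were scaling (DESeq2 1.42.0 size factors, total reads, TMM without mt- genes), read minimum, fold, cell filter, thinning and, chosen after seeing the data, reads of the chromosome 1 copies, stretch length and cells left out.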

Additional observations from a re-analysis of the deposited data

Results flagged for a closer look

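Cell 77 was outside every comparison because it had 1225 gene reads, over 680 genes. Its mt- genes held 100 of these reads, or 8.16% (95% exact binomial interval 6.69 to 9.84), above the 0.245% that a count of 0 allows at that depth.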

How the results depend on the processing

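Of 333 alternative values computed, 278 kept their direction and call or moved within the tolerance. An uncalled log2 ratio that turned sign passed this tolerance if it stayed within the counting interval of the main value. Of 159 alternative log2 ratios of members and their sums, 17 turned sign. mt-Rnr1 was called higher in IL4RaY709F against both other libraries under every scaling, read minimum and fold tried. None of these could have removed the call. mt-Rnr1 had 7851 reads there and log2 ratios of 2.08 and 2.03, and the other fold, 1.5, was looser. The scalings shift log2 ratios by -0.24 at the most. These settings do not bear on the spread between libraries. In IL4RaY709F against IL4Ra-/-, a read minimum of 100 left 1 mt- gene called (mt-Rnr1), since mt-Tc was no longer tested. With no read minimum, mt-Tp was called lower in IL4Ra-/- against WT (0 against 15 reads). It was then also called higher in IL4RaY709F against IL4Ra-/- (6 against 0 reads). At 1.5-fold, mt-Rnr2 was called higher in IL4RaY709F against IL4Ra-/- (log2 ratio 0.64). Scaling by total gene reads gave 0 nuclear list genes called in IL4RaY709F against WT. In IL4RaY709F against IL4Ra-/- it gave 3 calls, in both directions, beside 8 higher and 0 lower with TMM scaling. With reads outside mt- genes as the denominator, the bulk rRNA share was 0.269% in WT, 0.571% in IL4RaY709F and 0.283% in IL4Ra-/-. The protein share was then 2.37%, 2.42% and 2.41%, and the share of all mt- genes 2.64%, 2.99% and 2.69%. With the reads of the chromosome 1 copies added, the protein share was 2.44%, 2.50% and 2.46% and that of all mt- genes 2.71%, 3.06% and 2.74%. The median rho of 78 pairs of protein genes was 0.77 on shares of all gene reads in place of -0.02, since only those shares hold the common mitochondrial level. Thinned to 100000 gene reads, mt-Tp was detected in 1.25% of cells, mt-Tl1 in 3.75% and mt-Nd6 in 91.2%. At 1 read, mt-Tp was in 73.8% and mt-Tl1 in 70% of cells, so the depth of a cell limits these shares. mt-Co1 shared 39.8% of its stretches at 75 bases and 30.8% at 100. No paired analysis was possible because each genotype has 1 library and the cell numbers pair nothing. For the same reason no replicate could be left out.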
